A study of Mus musculus with 47 samples.

Results

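The 8 genes Slc12a1, Umod, Kcnj1, Bsnd, Cldn10, Cldn16, Cldn19 and Ptger3 were taken from the deposited kidney count table by gene symbol, as transport and identity genes of the thick ascending limb of the nephron. They are 8 of the 22474 genes in the table, and all 8 passed the filter on low counts. They were followed in 47 polyA RNA-seq libraries of the tissue labelled metanephros, the permanent kidney, from wild-type mice. The mice were of 3 inbred strains: NZO/HlLtJ, C57BL/6J and CAST/EiJ. Each was represented by females (F) and males (M) on a diet with 10% fat plus fiber, the control, or 44% fat plus fiber, the diet that the labels also call high in sugar. Feeding began at 6 weeks of age and tissue was taken at 15 weeks. Strain, sex and diet together made 12 groups of 4 libraries, except that CAST/EiJ males on 10% fat had 3. The labels give no other allele or drug and do not say whether every library came from its own animal, so p-values measure the spread between these libraries.

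The thick ascending limb takes up salt from the tubule fluid without water, which dilutes the fluid and drives the concentration of urine in the medulla. Slc12a1 encodes NKCC2, the apical sodium-potassium-chloride cotransporter blocked by loop diuretics, and Kcnj1 encodes ROMK, the channel that returns potassium to the lumen. Bsnd encodes barttin, an accessory subunit of basolateral chloride channels. The voltage this sets up moves cations between the cells through claudins. In this segment Cldn10 forms a sodium-selective pore, while Cldn16 and Cldn19 together carry calcium and magnesium. Umod encodes uromodulin, the most abundant protein of normal urine, and Ptger3 encodes EP3, a prostaglandin E2 receptor that restrains salt uptake in this segment. Loss of SLC12A1, KCNJ1 or BSND function causes Bartter syndrome in people, and loss of CLDN16 or CLDN19 function causes loss of magnesium and calcium in urine. Kcnj1, Bsnd and Ptger3 are also used in the distal nephron or collecting duct, and Cldn10 is also used in the proximal tubule, so their counts in whole kidney are not from this segment alone. In bulk tissue, fewer cells of a type and less RNA per cell cannot be told apart.

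In GRCm38, Slc12a1 lies at chr2:125152505-125230002, Umod at chr7:119462711-119479282 and Kcnj1 at chr9:32372418-32399192. Bsnd lies at chr4:106483456-106492283 and Cldn19 at chr4:119255414-119262438. Cldn10 lies at chr14:118787908-118875489, Cldn16 at chr16:26463135-26482765 and Ptger3 at chr3:157566892-157645888, by the GENCODE annotation.

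The sequences just upstream of 3 members are shown because these genes stand for different patterns in the data below: Slc12a1 passed no test between strains when averaged over sex, Umod differed between every pair of strains, and Cldn10 went against the other members between the sexes. They come from RefSeq promoters on GRCm38.p6 and are cut where the first annotated transcript of the gene begins. All letters are in lower case, since none of the motifs searched below was found in them.
Umod, minus strand, chr7:119479283-119479512: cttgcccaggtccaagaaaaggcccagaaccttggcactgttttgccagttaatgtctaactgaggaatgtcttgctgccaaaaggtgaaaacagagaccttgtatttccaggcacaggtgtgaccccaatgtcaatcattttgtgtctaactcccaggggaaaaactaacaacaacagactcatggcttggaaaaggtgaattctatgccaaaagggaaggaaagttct
Cldn10, plus strand, upstream start, chr14:118787621-118787870: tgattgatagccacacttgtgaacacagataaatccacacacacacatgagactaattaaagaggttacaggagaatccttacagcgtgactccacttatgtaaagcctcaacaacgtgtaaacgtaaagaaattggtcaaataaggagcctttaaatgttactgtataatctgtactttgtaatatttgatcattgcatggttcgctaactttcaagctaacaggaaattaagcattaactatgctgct
Slc12a1, plus strand, chr2:125152350-125152504: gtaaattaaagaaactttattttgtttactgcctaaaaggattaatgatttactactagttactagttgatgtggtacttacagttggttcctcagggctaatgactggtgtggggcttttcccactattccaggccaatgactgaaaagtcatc

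Promoters were found for 7 of the 8 members, with 9 starts in all, and Bsnd had no entry. AAGGTCA, the motif of estrogen-related receptors, was in 0 of these 9 windows of 250 bases before the start on either strand, against 4.08% of all 32851 RefSeq promoter windows of that length, and TATAAA on the sense strand was in 0 of 9, against 7.59%. The motifs do not overlap one another in letters. The absence of a match says only that these letters are not in these windows. Cldn10 has separate starts for isoforms of the proximal tubule and of the thick ascending limb, and the counts per gene sum them.

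Total counts per library ran from 34.4 to 58.4 M (median 44.8 M), and mitochondrial genes took 10.7 to 15.5% of them. The 8 members together took 0.273 to 0.808% (median 0.58%). Xist was at 863 to 1400 CPM (counts scaled to the TMM-adjusted library size) in the 24 female libraries and at 0.0921 to 2.43 in the 23 male libraries, and Ddx3y was at 48.6 to 99.4 CPM in males and at most 0.0702 in females, so every library had the sex of its label. In the 69 pairs of libraries within groups, the chi-square per gene was 11.4 to 60.3, so no pair differed by as little as counting noise. Markers of the adult nephron fixed for this work were present, with 12 proximal tubule genes summing to 16100 to 22300 CPM in each library. Library ID numbers fall into 3 runs (beginning 77, 81 and 89) that each hold libraries of all strains, and each fit has a term for the run. Sample IDs do not say what a run was.

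All 8 members were detected in each of the 47 libraries. Per kilobase of annotated exon, the median level was highest for Umod, at 1180 CPM per kilobase, followed by Slc12a1 at 308, Kcnj1 at 87.9 and Cldn10 at 52.9. Ptger3 followed at 22.7, then Bsnd at 16, Cldn19 at 7.57 and Cldn16 at 5.45 CPM per kilobase. Umod stood above Slc12a1, Slc12a1 above Kcnj1, and Bsnd above Cldn19 in 47 of 47 libraries. The order was closest between Kcnj1 and Cldn10, which held in 42 libraries, and between Ptger3 and Bsnd and between Cldn19 and Cldn16, which each held in 43. Cldn10, whose counts also come from the proximal tubule, was read far more per kilobase than the calcium and magnesium claudins. In CPM without length, the range over the 47 libraries was 1060 to 2290 for Slc12a1, 1400 to 5630 for Umod, 182 to 410 for Kcnj1 and 18.7 to 73.1 for Bsnd. It was 87.8 to 195 for Cldn10, 3.87 to 10.8 for Cldn16, 14.4 to 51.1 for Cldn19 and 41.1 to 140 for Ptger3. All levels below are in CPM, without length, and are compared only within a gene.

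**Figure D1:**
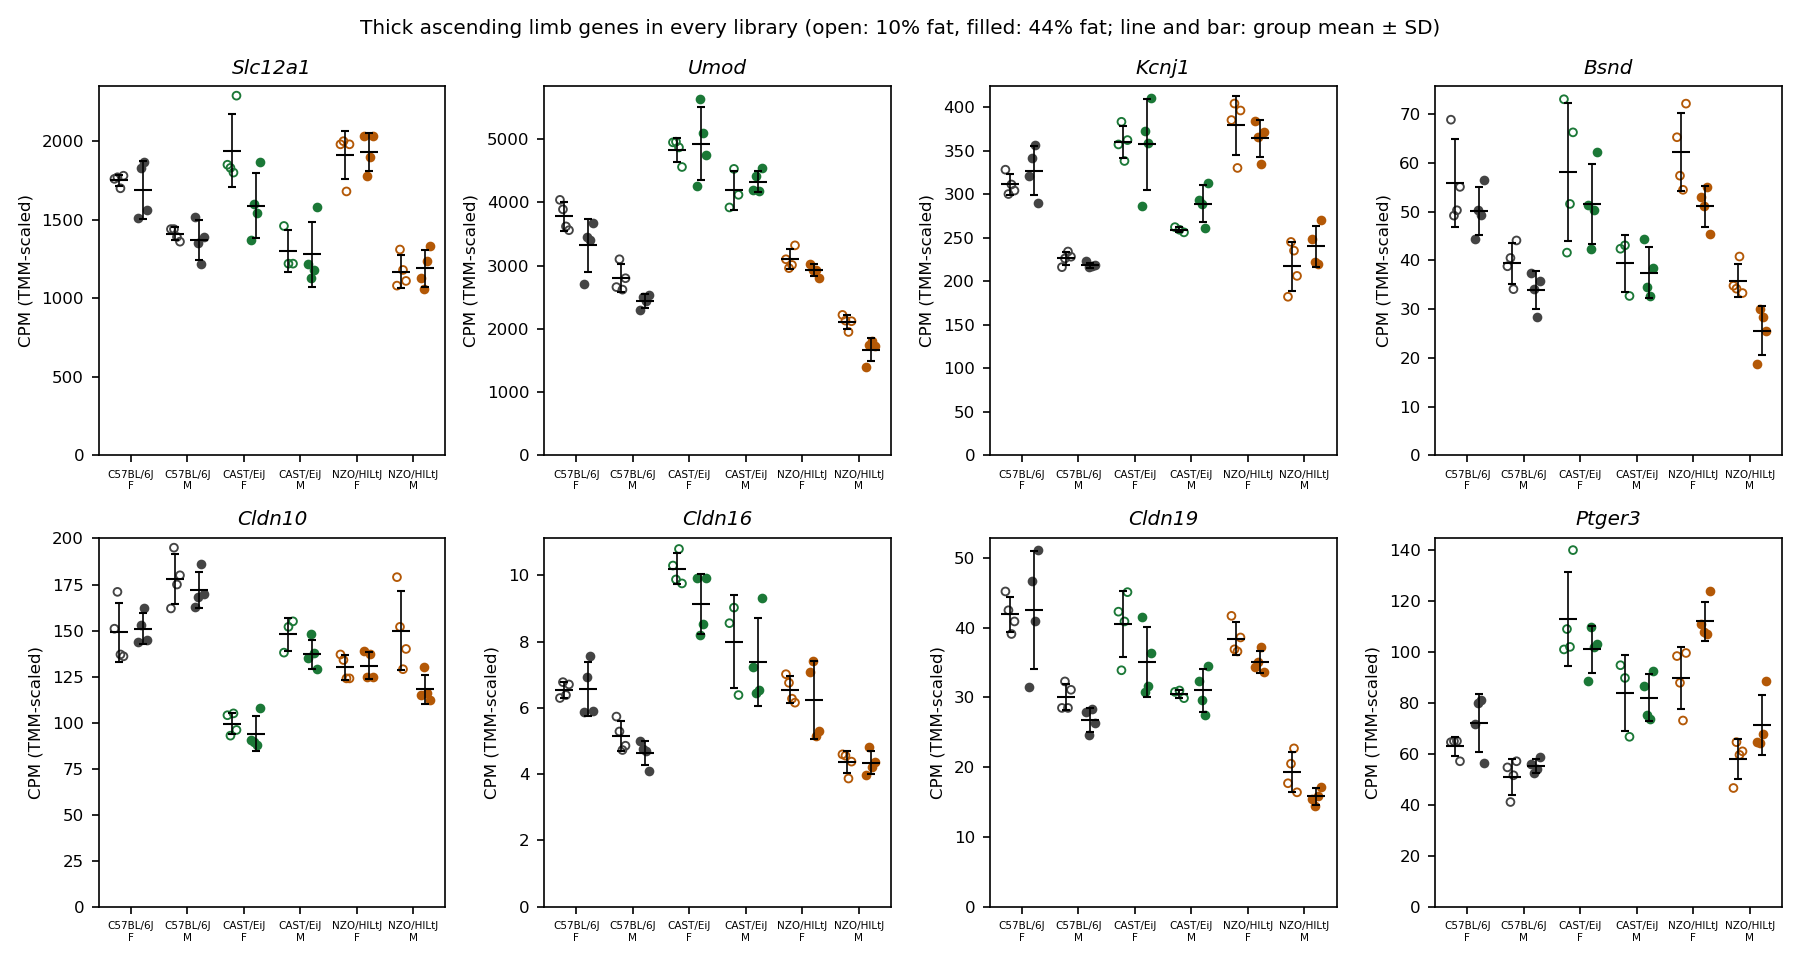
Level of each of the 8 genes in each library (points, CPM) by strain, sex and diet (open points 10% fat, filled points 44% fat), with the group mean as a line and its SD as a bar. NZO/HlLtJ males have the lowest Umod, between 1400 and 2220 CPM, and CAST/EiJ females the highest, between 4260 and 5630.

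Females and males differed in most members. In C57BL/6J and CAST/EiJ, 7 of the 8 members were higher in females and 1, Cldn10, was higher in males. In NZO/HlLtJ the same 7 were higher in females, and Cldn10 did not pass when averaged over diets. The medians of the 8 log2 differences, female minus male, were 0.42 in C57BL/6J, 0.35 in CAST/EiJ and 0.69 in NZO/HlLtJ. The medians over all genes tested were 0.046, 0.047 and 0.038. Sex differences were common in these kidneys: 25.1% of all 18786 genes tested were higher in females in C57BL/6J, 23.7% in CAST/EiJ and 25.4% in NZO/HlLtJ, and 22.7%, 23.9% and 24.5% were lower. The test was edgeR's quasi-likelihood test with Benjamini-Hochberg adjustment over all genes and a threshold of 0.05, as in every comparison below, and sex was averaged over both diets.

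Slc12a1, the cotransporter, was at 1680, 1980 and 2030 CPM (lowest, median, highest) in the 8 NZO/HlLtJ females and at 1060, 1160 and 1330 in the 8 males. Every NZO/HlLtJ female lay above every male. In C57BL/6J it was at 1510, 1770 and 1870 CPM in females and 1220, 1390 and 1520 in males, so that the groups met at their edges. In CAST/EiJ it was at 1370, 1810 and 2290 CPM in 8 females and 1130, 1220 and 1580 in 7 males, and the groups overlapped. The log2 difference was 0.70 (SE 0.07, edgeR adjusted p = 1.93e-11) in NZO/HlLtJ, 0.32 (SE 0.07, adjusted p = 0.000182) in C57BL/6J and 0.45 (SE 0.07, adjusted p = 1.86e-06) in CAST/EiJ.

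Kcnj1, the potassium channel that works with NKCC2, was also higher in females of every strain. Its C57BL/6J levels were 290, 316 and 356 CPM in females and 216, 220 and 234 in males, with a gap between the groups. In NZO/HlLtJ it was at 330, 378 and 404 CPM in females and 182, 229 and 270 in males, again with a gap. In CAST/EiJ it was at 286, 360 and 410 CPM in females and 256, 262 and 313 in males, and the groups overlapped. The log2 differences were 0.52 in C57BL/6J, 0.39 in CAST/EiJ and 0.70 in NZO/HlLtJ, each with SE 0.06. Bsnd, the chloride channel subunit, was higher in females by 0.55 (SE 0.10), 0.51 (SE 0.11) and 0.90 (SE 0.10) on the log2 scale in the same order. Its groups were apart in C57BL/6J, with females at 44.5 to 68.9 CPM and males at 28.4 to 44.1, and in NZO/HlLtJ, with females at 45.4 to 72.2 and males at 18.7 to 40.8.

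Among the claudins of the calcium and magnesium pore, Cldn19 had the widest sex difference of any member in NZO/HlLtJ and C57BL/6J, but 1 of the narrowest in CAST/EiJ. In NZO/HlLtJ it was at 33.7, 36.7 and 41.7 CPM in females and 14.4, 16.8 and 22.7 in males, so that the lowest female lay well above the highest male. In C57BL/6J it was at 31.5, 41.7 and 51.1 CPM in females and 24.6, 28.4 and 32.3 in males, and in CAST/EiJ at 30.8, 38.6 and 45.1 in females and 27.5, 30.8 and 34.5 in males. The log2 difference was 1.07 (SE 0.07, edgeR adjusted p = 4.13e-16) in NZO/HlLtJ, 0.60 (SE 0.07, adjusted p = 3.79e-09) in C57BL/6J and 0.28 (SE 0.07, adjusted p = 0.00153) in CAST/EiJ. In CAST/EiJ it was 0.39 on 10% fat (adjusted p = 0.0046) and did not pass on 44% fat, at 0.18 (adjusted p = 0.175). Its partner Cldn16 was low in every library and was higher in females by 0.42 (SE 0.08) in C57BL/6J, 0.34 (SE 0.08) in CAST/EiJ and 0.55 (SE 0.08) in NZO/HlLtJ on the log2 scale.

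Cldn10, whose counts also come from the proximal tubule, went the other way. In CAST/EiJ it was at 87.8, 94.5 and 108 CPM in females and 129, 138 and 155 in males, so that every female lay below every male. In C57BL/6J it was at 136, 148 and 171 CPM in females and 162, 172 and 195 in males, with some overlap. In NZO/HlLtJ it was at 124, 130 and 139 CPM in females and 112, 129 and 179 in males, and the medians nearly met. The log2 difference, female minus male, was -0.56 (SE 0.06, edgeR adjusted p = 1.16e-10) in CAST/EiJ, -0.23 (SE 0.06, adjusted p = 0.00112) in C57BL/6J and -0.03 in NZO/HlLtJ (95% interval -0.14 to 0.08, adjusted p = 0.708). By diet, the NZO/HlLtJ value was -0.22 on 10% fat (edgeR adjusted p = 0.0332) and 0.16 on 44% fat (adjusted p = 0.136). The test of a difference between these 2 values did not pass (0.38, SE 0.12, adjusted p = 0.262). Only the run of library IDs beginning 77 held both sexes of NZO/HlLtJ on the same diet, and the value there was -0.088. In C57BL/6J the value on 44% fat alone, -0.19, did not pass (adjusted p = 0.0628). Because the counts sum the isoforms of the proximal tubule and the thick ascending limb, a change in one cannot be told apart from a change in the other.

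Umod was at 2710, 3590 and 4040 CPM in C57BL/6J females and 2290, 2580 and 3100 in males. In CAST/EiJ it was at 4260, 4910 and 5630 CPM in females and 3920, 4200 and 4540 in males, and in NZO/HlLtJ at 2810, 2990 and 3320 in females and 1400, 1870 and 2220 in males. The sexes were apart in NZO/HlLtJ and overlapped in the others. The log2 difference was 0.69 (SE 0.05, edgeR adjusted p = 6.03e-15) in NZO/HlLtJ, 0.42 (SE 0.05, adjusted p = 6.96e-09) in C57BL/6J and 0.20 (SE 0.05, adjusted p = 0.002) in CAST/EiJ. Ptger3, the prostaglandin receptor, was higher in females by 0.34 (SE 0.09), 0.36 (SE 0.10) and 0.65 (SE 0.09) in C57BL/6J, CAST/EiJ and NZO/HlLtJ. Counted over the 8 members, all females lay above all males for 3 in C57BL/6J (Kcnj1, Bsnd and Cldn16; 10.6% of all genes), for 0 in CAST/EiJ (6.6%) and for 6 in NZO/HlLtJ (all but Cldn10 and Ptger3; 8.04%). All females lay below all males for Cldn10 alone and in CAST/EiJ alone, where 10.6% of all genes did so.

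**Figure D2:**
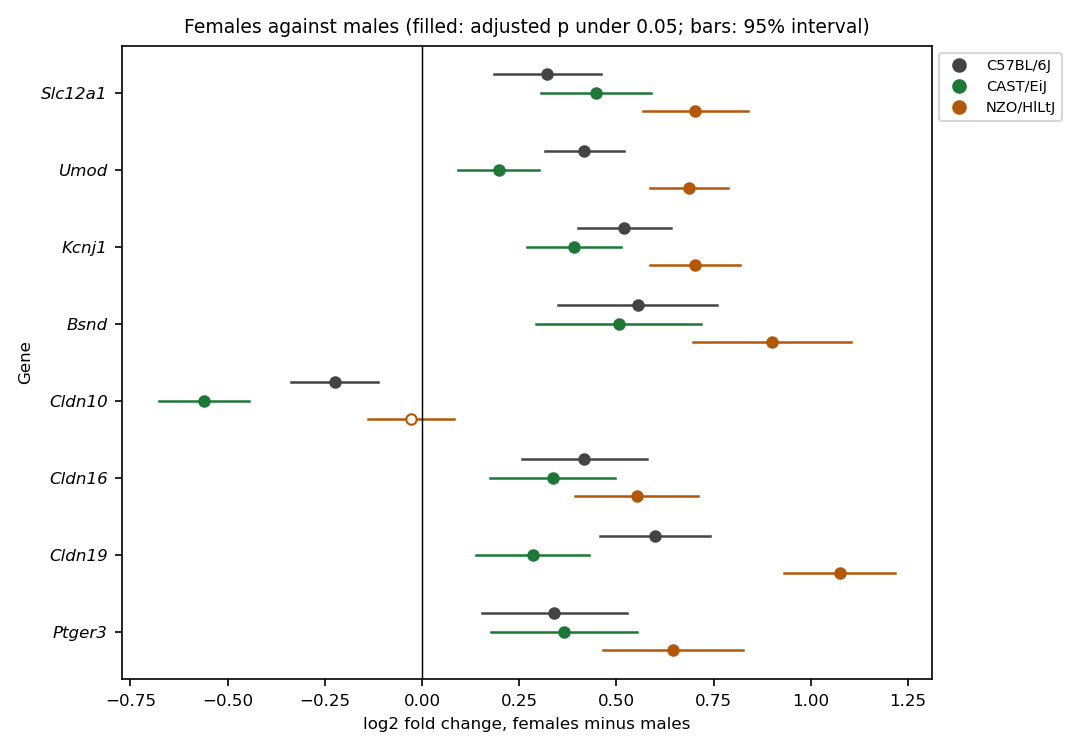
Log2 difference between females and males (x axis) of each member in each strain, with the 95% interval as a line and filled points where the adjusted p is under 0.05. The point farthest to the right is Cldn19 in NZO/HlLtJ at 1.07, and the one farthest to the left is Cldn10 in CAST/EiJ at -0.56.

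The difference between strains in the sex effect was tested as an interaction. Between NZO/HlLtJ and C57BL/6J, 3 of 8 members had a larger female excess in NZO/HlLtJ (2.6% of all genes differed in that direction): Cldn19 by 0.47 (SE 0.10, edgeR adjusted p = 0.00207), Slc12a1 by 0.38 (SE 0.10, adjusted p = 0.0135) and Umod by 0.27 (SE 0.07, adjusted p = 0.0179). Between CAST/EiJ and C57BL/6J, 3 of 8 differed, each in the direction of males in CAST/EiJ (7.3% of all genes): Cldn10 by -0.34 (SE 0.08, adjusted p = 0.00331), Cldn19 by -0.32 (SE 0.10, adjusted p = 0.0356) and Umod by -0.22 (SE 0.07, adjusted p = 0.0414). Between NZO/HlLtJ and CAST/EiJ, 4 of 8 differed, each in the direction of females in NZO/HlLtJ (7.81% of all genes): Cldn19 by 0.79, Cldn10 by 0.53, Umod by 0.49 and Kcnj1 by 0.31. Cldn19 and Umod, the calcium and magnesium claudin and the secreted protein, differed in all 3 of these tests, which share their libraries, with the largest female excess in NZO/HlLtJ and the smallest in CAST/EiJ. The calls between CAST/EiJ and C57BL/6J were near the threshold: with each of the 31 libraries left out in turn, Umod passed in 14 fits and Cldn19 in 16. Bsnd, Cldn16 and Ptger3 passed none of these edgeR tests, and the intervals stayed wide, for example 0.06 to 0.63 for Bsnd between NZO/HlLtJ and C57BL/6J. Between NZO/HlLtJ and CAST/EiJ, Bsnd passed with DESeq2 (adjusted p = 0.0496) and with limma-voom (adjusted p = 0.0281). Within 1 diet fewer calls held. For NZO/HlLtJ minus C57BL/6J, Umod was at 0.10 on 10% fat and 0.44 on 44% fat (edgeR adjusted p = 0.744 and 0.017), and Slc12a1, at 0.40 and 0.36, passed on neither (adjusted p = 0.166 and 0.276).

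The other genes of the segment were read from lists. Of 13 transport partners, 7, 7 and 6 were higher in females in C57BL/6J, CAST/EiJ and NZO/HlLtJ and 0, 2 and 1 were lower. Kcnj10, which encodes the basolateral potassium channel Kir4.1, was higher in females by 0.61, 0.47 and 0.69 on the log2 scale. Of 20 regulators of NKCC2 and of calcium transport, 14 were higher in females in each strain and 3, 4 and 3 were lower. Adcy6, which encodes the adenylyl cyclase downstream of vasopressin, was higher by 0.56, 0.55 and 0.62, and Mal, which encodes a protein of apical membrane sorting, by 0.46, 0.49 and 0.62. Cul3, which encodes the ubiquitin ligase scaffold that removes WNK kinases, was lower in females by -0.40 in C57BL/6J and -0.38 in CAST/EiJ. Of 20 identity genes, 15, 15 and 16 were higher in females and 3, 1 and 1 were lower. Kng2, a kininogen gene, was higher by 0.60, 0.81 and 0.87. Nos1, which marks the macula densa cells at the end of the limb, was higher by 1.39, 0.73 and 1.69. It is 1 of 6 macula densa genes listed. Their summed CPM ran from 69.5 to 80.6 in C57BL/6J females and from 45.7 to 58.7 in males. It ran from 44.7 to 57.6 and 32.5 to 39.8 in CAST/EiJ, and from 52.5 to 61.0 and 28.1 to 34.6 in NZO/HlLtJ.

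Markers of several other cell types were also higher in females, while those of the proximal tubule were mixed. In C57BL/6J, CAST/EiJ and NZO/HlLtJ, 6, 6 and 7 of 7 distal convoluted tubule markers, 8, 7 and 8 of 8 intercalated cell markers and 6, 6 and 6 of 6 podocyte markers were higher in females. Of 8 principal cell markers 6, 6 and 4 were higher and 0, 0 and 2 lower. Of 12 proximal tubule markers 5, 6 and 4 were higher and 4, 4 and 4 lower, and of 6 macrophage markers 0, 0 and 0 were higher and 0, 2 and 1 lower. The median log2 difference, female minus male, in C57BL/6J, CAST/EiJ and NZO/HlLtJ was 0.47, 0.56 and 0.66 over 7 distal convoluted tubule markers. It was 0.41, 0.40 and 0.61 over 8 intercalated cell markers, 0.49, 0.53 and 0.65 over 6 podocyte markers and 0.37, 0.42 and 0.28 over 8 principal cell markers. Over 12 proximal tubule markers it was 0.08, 0.10 and -0.01, and over 6 macrophage markers 0.08, 0.11 and 0.08. The summed CPM of the distal convoluted tubule markers ran from 1550 to 2120 in C57BL/6J females and from 1100 to 1310 in males, and from 1540 to 1780 in NZO/HlLtJ females and from 913 to 1280 in males. That of the proximal tubule markers ran from 19500 to 22300 in C57BL/6J females and from 20600 to 22200 in males. Markers of the thin limb and papilla, 8 genes, went the other way in CAST/EiJ, at 133 to 229 in females and 237 to 336 in males. Their summed CPM was 150 to 214 and 133 to 184 in C57BL/6J, and 146 to 223 and 146 to 224 in NZO/HlLtJ. The part of cell proportions in the members' sex difference was not tested.

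**Figure D3:**
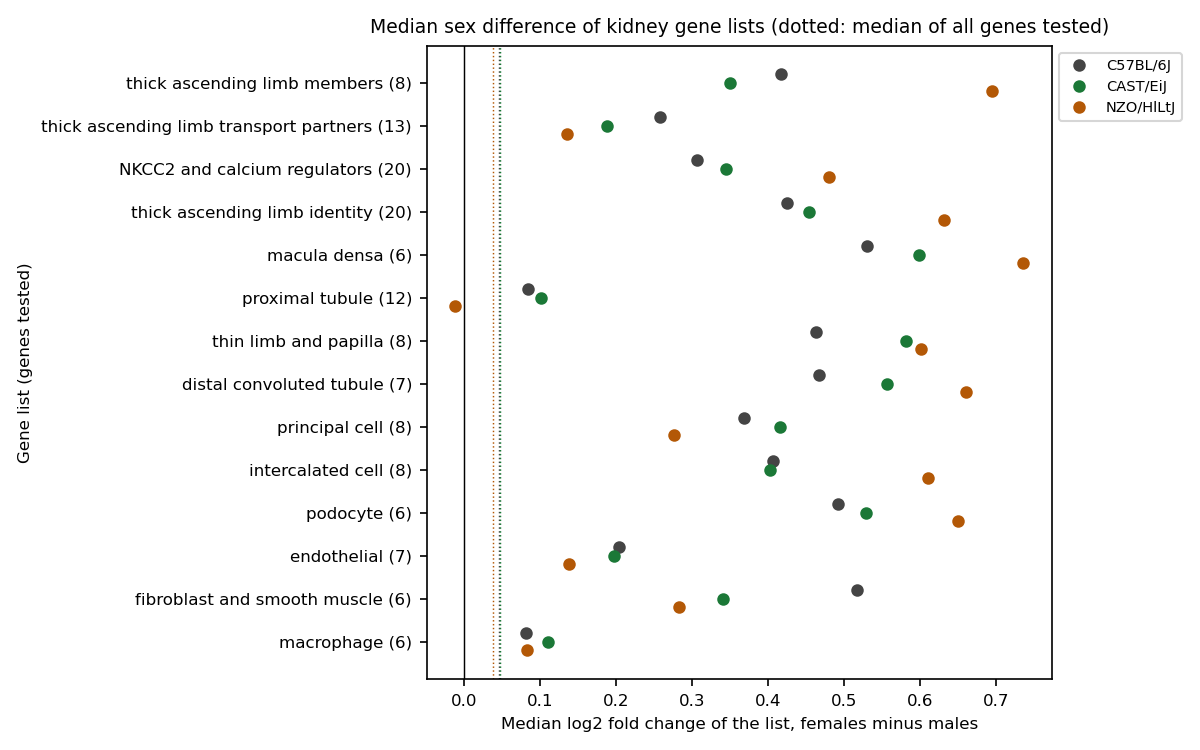
Median log2 difference between females and males over the genes of each marker list, by strain. The thick ascending limb members stand at 0.42, 0.35 and 0.69, near the distal convoluted tubule list at 0.47, 0.56 and 0.66, and the proximal tubule list stays at 0.08, 0.10 and -0.01.

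Between strains, averaged over sex and diet, the members separated gene by gene. NZO/HlLtJ differed from C57BL/6J in 5 of 8 members, 2 higher and 3 lower, where 52.2% of all genes differed (26.4% higher, 25.8% lower). CAST/EiJ differed from C57BL/6J in 5 of 8, 4 higher and 1 lower, where 71.4% of all genes differed (36.2% higher, 35.2% lower). NZO/HlLtJ differed from CAST/EiJ in 7 of 8, 1 higher and 6 lower, where 70% of all genes differed (34.8% higher, 35.2% lower). The shares of members that differed are not far from those of all genes. The split by direction between NZO/HlLtJ and CAST/EiJ, with 6 of 8 lower, is uneven where that of all genes is even, but was not tested. Among those 6, Bsnd, Ptger3, Kcnj1 and Cldn19 did not pass in females (edgeR adjusted p = 0.818, 0.456, 0.448 and 0.701). Umod and Cldn16 were lower in females too.

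Umod differed between every pair of strains. It was at 3920, 4540 and 5630 CPM (lowest, median, highest) in the 15 CAST/EiJ libraries, at 2290, 2950 and 4040 in the 16 of C57BL/6J and at 1400, 2510 and 3320 in the 16 of NZO/HlLtJ. Every CAST/EiJ library of a sex lay above every NZO/HlLtJ and every C57BL/6J library of that sex. Of all genes, 14.3% in females and 16.2% in males lay so above C57BL/6J, and 13.2% and 13.1% above NZO/HlLtJ. The log2 difference was 0.58 (SE 0.04, edgeR adjusted p = 6.41e-18) for CAST/EiJ minus C57BL/6J, -0.34 (SE 0.04, adjusted p = 2.43e-10) for NZO/HlLtJ minus C57BL/6J and -0.92 (SE 0.04, adjusted p = 2.52e-24) for NZO/HlLtJ minus CAST/EiJ. Slc12a1, which the same cells express, had medians of 1520, 1540 and 1510 CPM in C57BL/6J, CAST/EiJ and NZO/HlLtJ. Its log2 differences were -0.04 (95% interval -0.14 to 0.06) for CAST/EiJ minus C57BL/6J, -0.03 (-0.13 to 0.06) for NZO/HlLtJ minus C57BL/6J and 0.01 (-0.09 to 0.10) for NZO/HlLtJ minus CAST/EiJ. None of the 3 passed the test. Within a sex the averages hid opposite signs: NZO/HlLtJ minus C57BL/6J was -0.22 in males (edgeR adjusted p = 0.00874) and 0.16 in females (adjusted p = 0.0756).

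Cldn16 followed the pattern of Umod in CAST/EiJ. It was at 8.19, 9.9 and 10.8 CPM in CAST/EiJ females, 5.88, 6.55 and 7.56 in C57BL/6J females and 5.14, 6.52 and 7.41 in NZO/HlLtJ females. In males it was at 6.39, 7.24 and 9.33 CPM in CAST/EiJ, 4.11, 4.81 and 5.74 in C57BL/6J and 3.87, 4.37 and 4.83 in NZO/HlLtJ. In both sexes the CAST/EiJ libraries stood apart above those of both other strains. It was higher in CAST/EiJ than in C57BL/6J by 0.60 (SE 0.06, edgeR adjusted p = 2.38e-12) and lower in NZO/HlLtJ than in CAST/EiJ by -0.73 (SE 0.06, adjusted p = 1.57e-14), while the difference between NZO/HlLtJ and C57BL/6J was -0.13 (95% interval -0.25 to -0.02, adjusted p = 0.0542). Its partner Cldn19 had another order. It was lower in NZO/HlLtJ than in C57BL/6J by -0.45 (SE 0.05, adjusted p = 1.07e-09) and than in CAST/EiJ by -0.43 (SE 0.05, adjusted p = 1.91e-09), and did not pass between CAST/EiJ and C57BL/6J, at -0.02 (95% interval -0.12 to 0.08). The Cldn19 difference of NZO/HlLtJ from C57BL/6J was -0.69 in males (edgeR adjusted p = 3.21e-10) and -0.21 in females (adjusted p = 0.0161). Males of the strains were apart, at 14.4 to 22.7 against 24.6 to 32.3 CPM, whereas females overlapped at 33.7 to 41.7 and 31.5 to 51.1 CPM. The Cldn19 difference of NZO/HlLtJ from CAST/EiJ was -0.82 in males (adjusted p = 1.94e-12) and did not pass in females, at -0.03 (adjusted p = 0.701).

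Cldn10 was highest in C57BL/6J. It was at 136, 163 and 195 CPM in C57BL/6J, 87.8, 108 and 155 in CAST/EiJ and 112, 129 and 179 in NZO/HlLtJ. Its log2 difference from C57BL/6J was -0.46 (SE 0.04, edgeR adjusted p = 2.23e-13) in CAST/EiJ and -0.30 (SE 0.04, adjusted p = 4.57e-08) in NZO/HlLtJ. Ptger3 was lowest in C57BL/6J, at 41.1, 57.1 and 81.2 CPM, against 66.7, 94.8 and 140 in CAST/EiJ and 46.6, 80.5 and 124 in NZO/HlLtJ. Its log2 difference from C57BL/6J was 0.65 (SE 0.07, adjusted p = 4.15e-11) in CAST/EiJ and 0.43 (SE 0.07, adjusted p = 9.37e-07) in NZO/HlLtJ. Cldn10 was also higher in NZO/HlLtJ than in CAST/EiJ, by 0.43 in females (adjusted p = 2.03e-08), but the value in males was -0.10 (adjusted p = 0.125). Kcnj1 differed by less, at 0.24 (SE 0.04) for CAST/EiJ and 0.13 (SE 0.04) for NZO/HlLtJ against C57BL/6J. The latter was 0.22 in females (adjusted p = 0.00277) and did not pass in males, at 0.04 (adjusted p = 0.611), or on 10% fat, at 0.12 (adjusted p = 0.124). Bsnd passed between NZO/HlLtJ and CAST/EiJ alone, at -0.17 (SE 0.08, adjusted p = 0.0471). This call and that of Kcnj1 in the same comparison were near the threshold, passing in 12 and 18 of the 31 fits that each left out 1 library, and in females the values were 0.03 and 0.05. The sign for Bsnd also turned in the run of library IDs beginning 81, at 0.134. The difference of Ptger3 between NZO/HlLtJ and CAST/EiJ, -0.22 (SE 0.07), was at 0.005 in the run beginning 89. It did not pass on 44% fat, at -0.02 (adjusted p = 0.875), or in females, at -0.08 (adjusted p = 0.456), and was -0.43 on 10% fat. The other 49 of 51 values within runs had the sign of the whole.

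**Figure D4:**
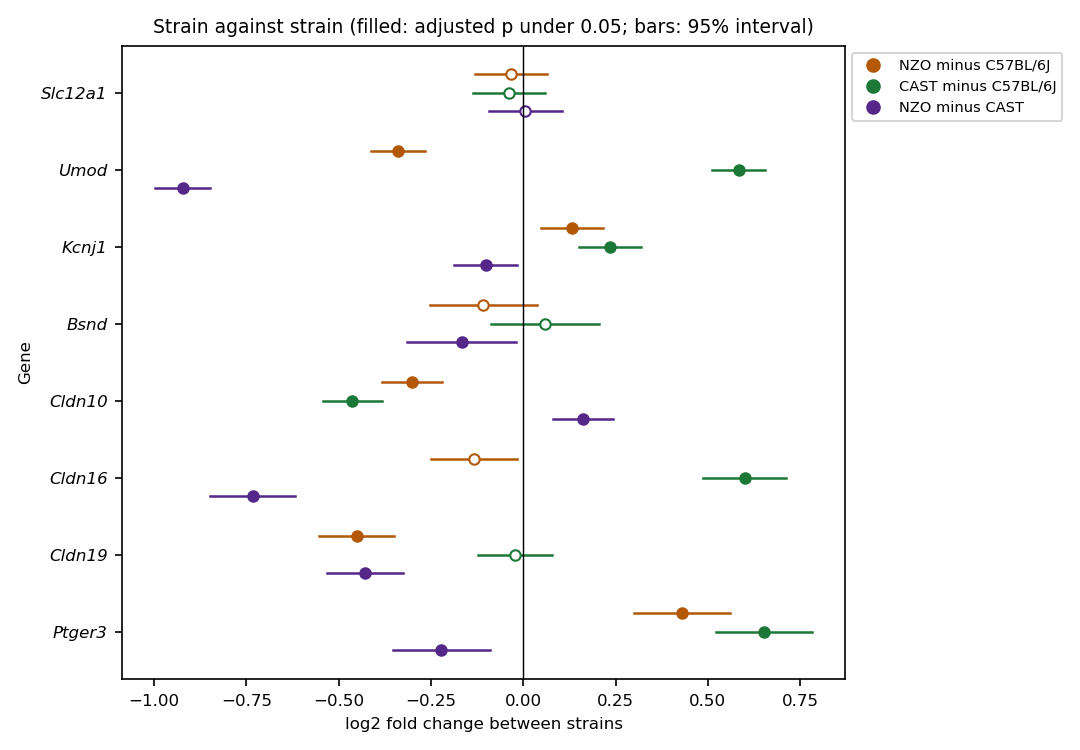
Log2 difference between strains (x axis) of each member, averaged over sex and diet, with the 95% interval as a line and filled points where the adjusted p is under 0.05. All 3 points of Slc12a1 lie near 0, while those of Umod run from -0.92 to 0.58.

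Reads of a CAST/EiJ or NZO/HlLtJ gene can align less well to a genome of C57BL/6J. Whether the deposited counts were made on strain genomes is not given in the sources used here, and its part in these strain differences was not tested. Among the other genes of the segment, Sorl1, which encodes a sorting receptor known to act on NKCC2 in this segment, was higher in CAST/EiJ than in C57BL/6J by 0.73 (SE 0.03) and lower in NZO/HlLtJ than in C57BL/6J by -0.38 (SE 0.03). Kcnj16, the partner of the Kcnj10 channel, was higher in CAST/EiJ than in C57BL/6J by 0.84 (SE 0.03). Egf, a growth factor gene read strongly in this segment and its neighbour, was lower in NZO/HlLtJ than in C57BL/6J by -0.47 (SE 0.04). Of the 20 identity genes, 6 were higher and 9 lower in NZO/HlLtJ than in C57BL/6J, where 52.2% of all genes differed, and 7 were higher and 4 lower in CAST/EiJ than in C57BL/6J, so that no more of them differed from C57BL/6J in CAST/EiJ than the 71.4% of all genes. Of the 7 distal convoluted tubule markers, 6 were lower in CAST/EiJ than in C57BL/6J, with a median of -0.64.

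The next comparison was of 44% with 10% fat within each strain, averaged over sex. In NZO/HlLtJ 3 of 8 members passed, where 3.62% of all genes did (1.98% higher, 1.64% lower): Umod and Bsnd fell and Ptger3 rose on 44% fat. With Cldn10 and Cldn19, 5 members were at an unadjusted edgeR p under 0.05 in NZO/HlLtJ. Cldn19 was at -0.21 (SE 0.07, edgeR adjusted p = 0.0934) and Cldn10 at -0.16 (SE 0.06, adjusted p = 0.0984). Kcnj1 and Cldn16 were at 0.04 and -0.04. In C57BL/6J 0 of 8 passed with edgeR, where 0.0266% of all genes did, with 1 (Umod) at an unadjusted p under 0.05. DESeq2 called 1, Umod, there, and limma called 0 both on voom weights and on the deposited transformed matrix. In CAST/EiJ 0 of 8 passed with edgeR, where 0.99% of all genes did, with 1 (Slc12a1) at an unadjusted p under 0.05, and DESeq2 and both limma fits called 0. The main transporter Slc12a1 differed by 0.02 (95% interval -0.12 to 0.15) in NZO/HlLtJ, -0.04 (-0.18 to 0.09) in C57BL/6J and -0.15 (-0.29 to -0.01, edgeR adjusted p = 0.348) in CAST/EiJ.

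In NZO/HlLtJ males, Umod was at 2220, 2130, 1950 and 2120 CPM on 10% fat and at 1400, 1740, 1800 and 1720 on 44% fat. All 4 libraries on 44% fat lay below all 4 on 10%. In NZO/HlLtJ females it was at 3100, 2960, 3010 and 3320 CPM on 10% fat and at 3030, 2930, 2930 and 2810 on 44% fat, and the groups overlapped. Over both sexes the log2 difference, 44% minus 10%, was -0.21 (SE 0.05, edgeR adjusted p = 0.013). By sex it was -0.38 in males (adjusted p = 0.00268) and -0.04 in females (adjusted p = 0.924). Only 1 run of library IDs held both diets of NZO/HlLtJ within a sex. The NZO/HlLtJ males of that run were at 2220 and 2130 CPM on 10% fat and at 1400 and 1740 on 44% fat. The call over both sexes rested on 1 library: without the first NZO/HlLtJ male on 44% fat, in which the members took the lowest share of counts of all 47 libraries (0.273%), the difference was -0.181 (adjusted p = 0.0533) and 0 of the 8 members passed with edgeR. In C57BL/6J it was -0.19 (SE 0.05, adjusted p = 0.27), with males at 2660, 3100, 2620 and 2800 CPM on 10% fat and 2290, 2510, 2440 and 2530 on 44% fat, again without overlap. In CAST/EiJ it was 0.02 (95% interval -0.09 to 0.12).

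Bsnd in NZO/HlLtJ males was at 34.8, 34.2, 40.8 and 33.3 CPM on 10% fat and at 18.7, 30.1, 28.3 and 25.5 on 44% fat, without overlap. In females it was at 65.3, 57.4, 54.5 and 72.2 CPM on 10% fat and at 53.0, 51.1, 55.1 and 45.4 on 44% fat, with overlap at the edge. The log2 difference over both sexes was -0.38 (SE 0.10, edgeR adjusted p = 0.0293). It was -0.18 (95% interval -0.38 to 0.02) in C57BL/6J and -0.10 (-0.31 to 0.11) in CAST/EiJ. Ptger3 went up in NZO/HlLtJ. In females it was at 98.4, 87.9, 73.1 and 99.6 CPM on 10% fat and at 111, 108, 107 and 124 on 44% fat, without overlap, and in males at 46.6, 64.6, 59.6 and 61.0 on 10% fat and 64.5, 64.3, 67.7 and 88.8 on 44% fat. The log2 difference was 0.31 (SE 0.09, edgeR adjusted p = 0.0482), close to the threshold. With each of the 16 NZO/HlLtJ libraries left out in turn, Bsnd passed in 11 fits, with values from -0.422 to -0.31, and Ptger3 in 4, with values from 0.251 to 0.344. Bsnd was lost without female 2 or 4 on 44% fat, female 4 or male 3 on 10% fat or male 1 on 44% fat, in the order of the values above. Ptger3 passed only without female 1 or male 2 on 10% fat or male 2 or 3 on 44% fat. Ptger3 also missed the threshold with DESeq2 size factors and without the filter on low counts. Neither passed within 1 sex: Bsnd was at -0.33 in females and -0.43 in males (adjusted p = 0.451 and 0.109), and Ptger3 at 0.33 and 0.30 (adjusted p = 0.383 and 0.234).

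Counted within a sex, 2 of 8 members in NZO/HlLtJ males did not overlap between diets, both lower on 44% fat (6.79% of all genes did not overlap), and 1 of 8 in females, higher on 44% fat (7.31%). In C57BL/6J males 2 of 8 did not overlap, Umod and Cldn19, both lower on 44% fat (3.83% of all genes did not overlap). In C57BL/6J females all 8 members overlapped between diets (3.74% of all genes did not). In CAST/EiJ all 8 overlapped in females (3.39% of all genes did not) and in males (10.7% did not). With edgeR 0 of 8 members passed any of the 3 tests of a strain difference in the diet effect. At an unadjusted p under 0.05 the count was 2 for NZO/HlLtJ minus CAST/EiJ (Umod and Ptger3), 1 for CAST/EiJ minus C57BL/6J (Umod) and 0 for NZO/HlLtJ minus C57BL/6J. DESeq2 and limma-voom each called 1 in the first of these tests and 0 in the others, and limma on the deposited matrix called 0. For Umod that difference was -0.23 (SE 0.07, edgeR adjusted p = 0.109) for NZO/HlLtJ minus CAST/EiJ and -0.02 (95% interval -0.16 to 0.12) for NZO/HlLtJ minus C57BL/6J, and 1.28% and 0.0373% of all genes passed in these tests. For CAST/EiJ minus C57BL/6J 0.0532% of all genes passed. For Ptger3 it was 0.41 (SE 0.13, adjusted p = 0.117) for NZO/HlLtJ minus CAST/EiJ. In the tests of a sex difference in the diet effect, 0 of 8 members passed in any strain with edgeR, DESeq2 or either limma fit, with 2 at an unadjusted p under 0.05 in NZO/HlLtJ and 0 in the others. Of all genes, 0% passed in C57BL/6J, 0.0479% in CAST/EiJ and 0.00532% in NZO/HlLtJ. In NZO/HlLtJ the values were 0.34 for Umod (SE 0.11, adjusted p = 0.266) and 0.38 for Cldn10 (SE 0.12, adjusted p = 0.262). Only 1 run of library IDs held both diets of NZO/HlLtJ within a sex. In the other runs females and males of this strain were on different diets, so there the test also compares runs. Its values then rest on the run term, which was fitted over all groups. The counts of members without overlap have no such correction. The diet difference of Cldn10, 44% minus 10%, was -0.35 in NZO/HlLtJ males (edgeR adjusted p = 0.0124) and 0.02 in females. In the run with both diets, Cldn10 was at 179 and 152 CPM in males on 10% fat and at 115 and 130 on 44% fat. Females of that run were at 137 and 134 CPM on 10% fat and at 139 and 125 on 44% fat.

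**Figure D5:**
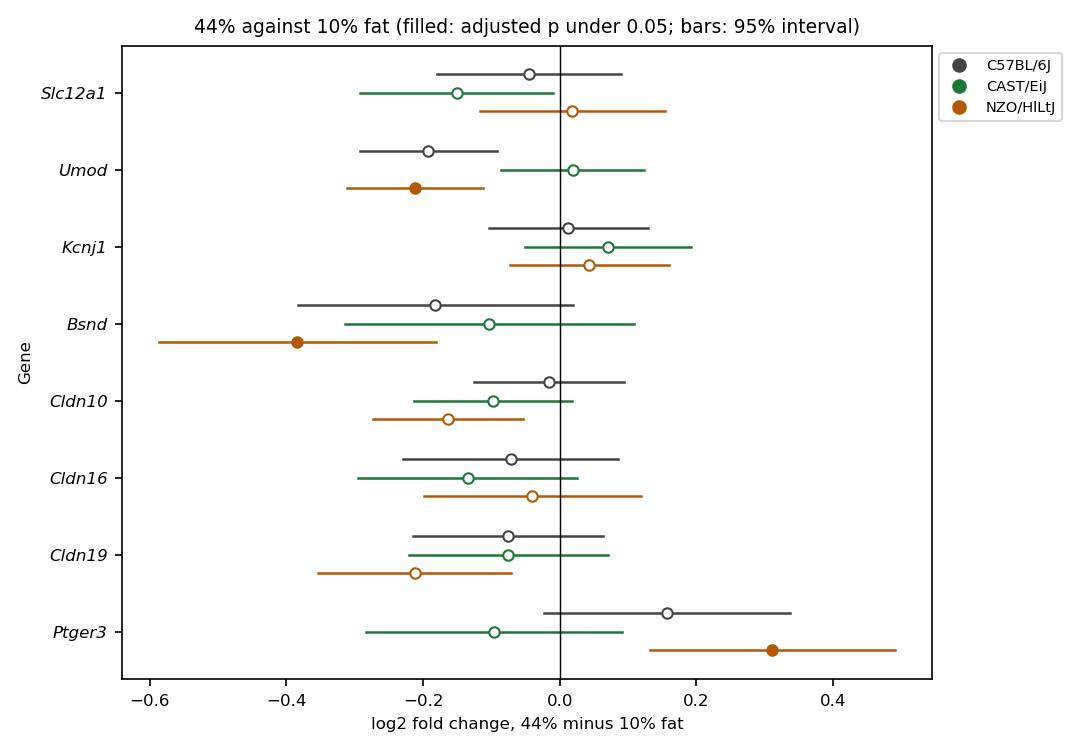
Log2 difference between 44% and 10% fat (x axis) of each member in each strain, averaged over sex, with the 95% interval as a line and filled points where the adjusted p is under 0.05. The 3 filled points are Umod at -0.21, Bsnd at -0.38 and Ptger3 at 0.31, all in NZO/HlLtJ.

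The run of library IDs beginning 77 was the only one that held both diets of NZO/HlLtJ within a sex. In the other runs NZO/HlLtJ females and males were on different diets, so a diet difference within a sex also compared runs. In the run beginning 77 the log2 differences were -0.251 for Umod, -0.387 for Bsnd and 0.233 for Ptger3. In NZO/HlLtJ males the mitochondrial share of counts ran from 10.69 to 11.95% on 10% fat and from 12.24 to 14.27% on 44% fat, and its part in these differences was not tested. Among the 13 transport partners in NZO/HlLtJ, Atp1b1, the beta subunit of the sodium pump, was higher on 44% fat by 0.16 (SE 0.05) and Slc9a3, the sodium-proton exchanger NHE3, was higher by 0.18 (SE 0.05). Both are also abundant in the proximal tubule. Among the 20 regulators, Rragd, a GTPase of nutrient sensing known for its role in magnesium handling, was higher by 0.34 (SE 0.06, edgeR adjusted p = 0.00056) and Casr, the calcium-sensing receptor, was lower by -0.30 (SE 0.09, adjusted p = 0.0491). Of the 20 identity genes, Ppp1r1b alone passed, at -0.39 (SE 0.08). Ptgs2, the prostaglandin-making enzyme COX-2 of the macula densa, was higher by 0.97 (SE 0.27, adjusted p = 0.0368) at a median of 1.43 CPM. Of 8 intercalated cell markers, 4 were lower and 0 higher (1.64% and 1.98% of all genes), with a median of -0.26. Bsnd is also a gene of those cells, and their part in its diet difference was not tested.

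The ratio of each member to Slc12a1 in the same library shows which members moved apart from the cotransporter. The 42 comparisons of these ratios were chosen after the levels had been seen, and p-values were adjusted over the 42. The permutations did not take the run of library IDs into account. The log2 ratio of Umod to Slc12a1 differed by -0.947 between NZO/HlLtJ and CAST/EiJ, 0.63 between CAST/EiJ and C57BL/6J and -0.317 between NZO/HlLtJ and C57BL/6J (permutation within sex and diet groups, two-sided p = 1e-05, the smallest the permutations can give, and adjusted p = 4.67e-05 for each). The ratio of Cldn10 to Slc12a1 was lower in females by -1.02 in CAST/EiJ, -0.729 in NZO/HlLtJ and -0.536 in C57BL/6J (exact permutation within diets, p = 0.000408 and adjusted p = 0.00101 for each). This p is the smallest the exact test can give here. In NZO/HlLtJ Cldn10 itself did not pass between the sexes, at -0.03, while Slc12a1 was higher in females by 0.70. The ratio there thus mostly reflects Slc12a1. The ratio of Cldn19 to Slc12a1 was higher in females by 0.374 in NZO/HlLtJ (exact permutation adjusted p = 0.0018) and 0.249 in C57BL/6J (exact permutation adjusted p = 0.0197), and was -0.165 in CAST/EiJ (exact permutation adjusted p = 0.173). For Ptger3 the sex difference of this ratio was 0.0264, -0.0821 and -0.0555 in C57BL/6J, CAST/EiJ and NZO/HlLtJ, and none passed. Between strains the Ptger3 ratio passed in each pair (permutation adjusted p at most 0.000315). It differed by 0.694 for CAST/EiJ minus C57BL/6J, 0.461 for NZO/HlLtJ minus C57BL/6J and -0.233 for NZO/HlLtJ minus CAST/EiJ. Kcnj1 and Bsnd ratios were higher in C57BL/6J females by 0.206 and 0.219 (exact permutation adjusted p = 0.00101 and 0.0335). Neither passed between the sexes of the other strains. Kcnj1, Cldn10, Cldn16 and Cldn19 passed in some strain pairs, Bsnd in none.

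After group means and runs were removed, the members were compared across the 47 libraries with Slc12a1, in a family of 7 relations. The log2 CPM of both genes of a relation come from the same library and its scaling. Kcnj1 followed Slc12a1 with Pearson r = 0.651 and Spearman rho = 0.652 (permutation p = 7e-05 and 9e-05, adjusted p = 0.000245 and 0.000315). Ptger3 followed it with r = 0.65 and rho = 0.662 (permutation p = 5e-05 for both, adjusted p = 0.000245 and 0.000315). Without the 2 libraries farthest from the median of Slc12a1, r was 0.672 for Kcnj1 and 0.605 for Ptger3, and within the runs beginning 77, 81 and 89 it was 0.667, 0.633 and 0.671 for Kcnj1 and 0.705, 0.646 and 0.635 for Ptger3. Umod did not follow Slc12a1 in this way (r = 0.141, rho = 0.13, permutation adjusted p = 0.505 and 0.519), nor did Cldn10 (r = -0.0694, rho = -0.0931, permutation adjusted p = 0.672 and 0.562). For Bsnd, Cldn16 and Cldn19, r was 0.322, 0.394 and 0.314, with permutation adjusted p = 0.111, 0.0985 and 0.113.

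Across the 12 group means, the genes outside the set whose pattern was most like the mean of the 8 members were Ston2 (Pearson r = 0.960), Atp8a1 (0.959), S100a16 (0.958), Chst15 (0.949) and Ppp1r1a (0.947). Ppp1r1a is also one of the 20 regulators. For Slc12a1 alone they were Scin (0.964), Pla1a (0.961) and Slc16a5 (0.949). For Umod alone they were Sorl1 (0.968), Map3k1 (0.965) and Tmem30b (0.964). These values are descriptions over 12 group means of genes with an average log2 CPM of at least 4.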

How the data were processed

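PolyA RNA libraries (KAPA mRNA HyperPrep) were read as 100-base pairs with a target of 30 M pairs, per the labels' protocols. The authors deposited expected counts per gene, of which 25.9% of values are not whole, and a variance-stabilized matrix on a log2 scale. They also deposited an annotation table with gene positions in megabases. The submitters' processing notes name the build GRCm38 and DESeq2. The aligner, the counter and the use of strain genomes are not given in the sources used here.

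Here the expected counts were rounded and scaled by TMM (factors 0.89 to 1.11). The factors were 1.003 to 1.109 in females and 0.8901 to 0.9925 in males, so they did not overlap between the sexes. The sex differences therefore rest on a scaling that differs by sex, and differences without scaling were not tested. The edgeR filter for low counts kept 18786 genes and set aside 3688. edgeR 4.0.16 in R 4.3.3 fitted 1 mean for each of the 12 groups and a term for the run of library IDs, with 33 residual degrees of freedom. Contrasts averaged the groups they compare equally. Calls used Benjamini-Hochberg adjusted p under 0.05 over all genes, and 95% intervals are 1.96 SE to each side. Levels are CPM on the TMM-adjusted library size, and log2 levels add a prior count of 1. Ratios and correlations used 100000 permutations where exact tests were too many.

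The 8 genes and all gene lists were chosen with earlier results of these data known. All members were tested in each comparison, though not every value is printed. From other lists at most the 4 called genes with the smallest adjusted p are named. The alternatives were DESeq2 1.42.0, its size factors in edgeR, limma 3.58.1 with voom and on the deposited matrix, no filter and no run term. Others were the compared strains alone, contrasts within 1 sex or 1 diet of the main fit, and each library left out in turn. On simulated counts for diet in NZO/HlLtJ (18641 genes, 50 changed at each size), edgeR recovered 72, 82, 100 and 100% of genes changed 1.25, 1.5, 2 and 3 fold. Total counts ran from 34.4 to 58.4 M per library. Some listed genes and 1 promoter motif are not reported here.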

Additional observations from a re-analysis of the deposited data

Results flagged for a closer look

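The sets examined, 88 in number, were each 1 member in 1 group of 4 libraries. In 5 of them, 1 library lay far from the other 3, where chance marks about 1 set in 20. The sets share libraries and are not independent. Slc12a1 was at 2290 CPM in 1 CAST/EiJ female on 10% fat, against 1800 to 1850 in the others of its group, and at 1680 CPM in 1 NZO/HlLtJ female on 10% fat, against 1980 to 2000. Cldn10 was at 108 CPM in 1 CAST/EiJ female on 44% fat, against 87.8 to 90.3. Ptger3 was at 57.1 CPM in 1 C57BL/6J female on 10% fat, against 64.6 to 65.0, and at 88.8 CPM in 1 NZO/HlLtJ male on 44% fat, against 64.3 to 67.7.

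The sex effect, female minus male, differed between strains for 5 members by the interaction test of edgeR. For NZO/HlLtJ minus C57BL/6J the log2 difference was 0.38 for Slc12a1, 0.27 for Umod and 0.47 for Cldn19. For CAST/EiJ minus C57BL/6J it was -0.34 for Cldn10, -0.22 for Umod and -0.32 for Cldn19. For NZO/HlLtJ minus CAST/EiJ it was 0.53 for Cldn10, 0.49 for Umod, 0.31 for Kcnj1 and 0.79 for Cldn19.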

How the results depend on the processing

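Of the 23 calls between the sexes, 23 passed in every fit that left out 1 library, as did 15 of 17 between strains, 8 of 10 between strains in the sex effect and 0 of 3 for diet. Under every other alternative 19, 11, 1 and 0 of these calls passed, and 23, 14, 10 and 3 kept their sign in all fits. With 1 library left out, the count of members called ranged from 0 to 3 for diet in NZO/HlLtJ and 5 to 6 for NZO/HlLtJ minus C57BL/6J. It was 5 to 7 for NZO/HlLtJ minus CAST/EiJ, 1 to 3 for the sex effect in CAST/EiJ minus C57BL/6J and 4 to 6 for that in NZO/HlLtJ minus CAST/EiJ. Under the other alternatives it ranged from 0 to 3, 4 to 6, 3 to 7, 0 to 3 and 1 to 5, in the same order. For diet in NZO/HlLtJ the count was 0 in females and 1 with NZO/HlLtJ libraries alone. For the diet effect in NZO/HlLtJ minus CAST/EiJ it was 1 in males, with limma-voom and with DESeq2, and for diet in C57BL/6J it was 1 with DESeq2. The count for the sex effect was 1 on 10% fat and 1 on 44% fat for NZO/HlLtJ minus C57BL/6J, and 1 on 10% fat for NZO/HlLtJ minus CAST/EiJ. For CAST/EiJ minus C57BL/6J it was 0 on 10% fat and 1 without the expression filter, with the compared strains alone and with limma on the deposited matrix. Between NZO/HlLtJ and CAST/EiJ the count was 3 in females, where Bsnd and Kcnj1 turned to 0.0298 and 0.054, and Cldn10 turned to -0.104 in males. Of all genes, diet calls ranged under the alternatives other than left-out libraries from 0 to 27 in C57BL/6J (5 as reported), 27 to 501 in CAST/EiJ (186) and 28 to 985 in NZO/HlLtJ (680). For strain differences in the sex effect they ranged from 283 to 1306 (930), 1198 to 3090 (2488) and 1296 to 2931 (2694), for NZO/HlLtJ minus C57BL/6J, CAST/EiJ minus C57BL/6J and NZO/HlLtJ minus CAST/EiJ. Contrasts within 1 sex or diet came from the fit of all 47 libraries and compared fewer of them. The cause of the other changes was not tested. No paired analysis was possible because the labels carry no replicate numbers.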
